A study of Mus musculus with 10 samples.

Results

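Small leucine-rich proteoglycans are secreted matrix proteins built around a curved stack of leucine-rich repeats, and the 7 genes described here were taken by symbol from a deposited table of 21877 gene symbols. They are Dcn, Bgn and Aspn of class I, Lum, Fmod and Prelp of class II, and Ogn of class III. All 7 were found once in the table and all 7 passed the filter on low counts, as did 15385 symbols in all. The samples were peritoneum of male C57BL/6 mice that received PD fluid or PBS into the peritoneal cavity over 6 weeks. PD fluid is the solution infused into the abdomen in peritoneal dialysis, and the labels give its strength as 4.25%. The 4 groups were Mr1-/- mice on PD fluid, Mr1-/- mice on PBS, Mr1+/+ mice on PD fluid and Mr1+/+ mice on PBS. Mr1 encodes the molecule that shows metabolites of microbial vitamin synthesis to mucosal-associated invariant T cells. The age of the mice and the part of Mr1 that was deleted are not given in the labels.

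The proteins coat collagen fibrils, set how thick the fibrils grow and how they are spaced, and hold growth factors of the TGF-beta family in the matrix. Class I and class II members can carry chains of chondroitin, dermatan or keratan sulfate. In connective tissue they are made mainly by fibroblasts, and in the peritoneum such cells lie in the layer below the mesothelium, which thickens during long exposure to dialysis fluid.

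The 10 libraries held 14145635 to 16335799 counts each. Mr1-/- PD fluid replicates 1 and 2 were near-identical to each other, with a chi-square per gene of 1.74, as were Mr1+/+ PBS replicates 1 and 2, with 2.23, against 18.6 to 118 for the other pairs within a group. Each near-identical pair was summed and counted as 1 sample. That left 1 sample of Mr1-/- PD fluid, 2 of Mr1-/- PBS, 3 of Mr1+/+ PD fluid and 2 of Mr1+/+ PBS. No label ties a library to an animal, so the spread that the p-values measure is that of the samples and may be technical. With 1 Mr1-/- PD fluid sample, the fit takes the spread of that group from the other 3. Mr1 itself was at 2.34 CPM (TMM-scaled counts relative to library size) in the Mr1-/- PD fluid sample and at 1.96 and 2.45 CPM in the Mr1-/- PBS samples, against 29.9 to 32.5 CPM in Mr1+/+ PD fluid and 21.0 to 24.8 CPM in Mr1+/+ PBS. All 13 mesothelial markers were detected in every sample. Mr1+/+ PBS replicate 3 stood apart, with 2474 CPM summed over 11 intestinal epithelium markers against 24.4 to 35.8 CPM in the other samples, and with 31295 CPM summed over 12 pancreatic acinar markers against 179 to 6397 CPM elsewhere. The members' calls, and some of the list medians and ratios between groups that use that library, are given with and without it. Leaving it out leaves 1 Mr1+/+ PBS sample, whose spread the fit then takes from the other groups.

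Of the 7 genes, 6 lie in 3 clusters of related genes, and Bgn lies alone on chromosome X (chrX:73483602-73495933, mm10, plus strand). On chromosome 10, Dcn (chr10:97479609-97518143) is followed after 47.0 kb by Lum (chr10:97565128-97572703) on the same strand, and then by Kera and Epyc, whose highest counts in a library were 2 and 6. On chromosome 1, Prelp (chr1:133910304-133921414, minus strand) lies 2.30 kb from Optc and 116 kb from Fmod (chr1:134037254-134048277, plus strand). On chromosome 13, Ecm2, Aspn (chr13:49544443-49567565), Omd and Ogn (chr13:49608046-49624501) follow each other on the plus strand with gaps of 11.7, 14.9 and 15.2 kb. Those 4 genes lie inside Cenpp, a centromere gene read from the other strand. No step that marks the strand is named in the labels, so reads from overlapping exons of opposite strands cannot be told apart. Aspn shares 7 exon bases with Cenpp and Ogn shares 0, while Prelp shares 350 of its 3615 exon bases with the antisense gene Gm15851.

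Aspn and Ogn, neighbours in the chromosome 13 cluster, had the highest Pearson's r of any 2 members (0.92, with 7 other pairs higher by Spearman's rho), and Bgn was among the members least alike Aspn, so the promoters of these 3 genes are shown. The sequences are the 250 bases before each RefSeq gene start (GRCm38.p6, the assembly of mm10), 5′ to 3′ on the strand of the gene, with motif matches in capitals. The sites are chr13:49544193-49544442 for Aspn, chr13:49607765-49608014 for Ogn and chrX:73483351-73483600 for Bgn, all on the plus strand.
Aspn: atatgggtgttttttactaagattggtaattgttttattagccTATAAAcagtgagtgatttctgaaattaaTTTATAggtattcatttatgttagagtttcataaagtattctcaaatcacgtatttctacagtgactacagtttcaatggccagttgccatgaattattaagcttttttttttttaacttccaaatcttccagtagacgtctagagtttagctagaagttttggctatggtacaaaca
Ogn: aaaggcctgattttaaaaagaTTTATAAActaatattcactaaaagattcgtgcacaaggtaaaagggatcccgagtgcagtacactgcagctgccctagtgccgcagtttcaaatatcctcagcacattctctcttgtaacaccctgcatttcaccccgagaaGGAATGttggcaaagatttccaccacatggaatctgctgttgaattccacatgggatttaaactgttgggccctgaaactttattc
Bgn: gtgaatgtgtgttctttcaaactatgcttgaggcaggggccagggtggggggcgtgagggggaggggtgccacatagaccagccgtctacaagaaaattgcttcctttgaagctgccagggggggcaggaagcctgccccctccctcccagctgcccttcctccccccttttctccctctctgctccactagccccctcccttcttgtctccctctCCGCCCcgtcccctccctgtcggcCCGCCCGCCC
The 5 motifs below were searched on both strands. The letters TATAAA of the classical box near gene starts were found in 12.4% of 32851 promoters of this length. The letters GGGCGG, which the factor Sp1 binds, were found in 32.7%. The letters GGAATG of the TEAD factors were found in 12.6%, the letters CAGACA of the SMAD factors in 17.1%, and the letters TGANTCA of the AP-1 factors in 6.75%. The Aspn promoter held TATAAA starting 207 bases before the gene start and its reverse complement starting 178 bases before it. In the Ogn promoter, 2 overlapping matches of TATAAA on opposite strands began 229 and 227 bases before the start, and GGAATG began 86 bases before it. The Bgn promoter had 3 matches of GGGCGG on the reverse strand, beginning 34, 10 and 6 bases before the start, of which the last 2 overlap. Base composition also differed, with 30% G and C in Aspn, 42.0% in Ogn and 64.4% in Bgn, against a median of 52.4% over all promoters. The RefSeq table matched 5 of the 7 genes, and the windows of Prelp (55.6% G and C) and Fmod (51.2%) held none of the 5 motifs. Such matches are letters in a window and were not tested as binding sites.

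PD fluid in Mr1+/+ mice went with more RNA of most of these genes. Of the 7 genes, 4 passed the test and were higher (Lum, Dcn, Bgn and Prelp), none was lower, and the 3 others were Ogn, Aspn and Fmod. Lum, at 3.38-fold, and Dcn, at 2.66-fold, had the largest changes of the 4 that passed. Over all genes tested, 14.9% were called, 8.49% higher and 6.37% lower, in that comparison. The members' median log2 fold change was 1.41, against -0.06 for all genes tested. A gene was called at an adjusted p under 0.05 from edgeR's quasi-likelihood test with Benjamini-Hochberg adjustment over all 15385 genes, and fold changes are on the log2 scale of the fitted counts. In 6 of the 7 genes the lowest PD fluid sample was above the highest PBS sample, which held for 25% of all genes tested. In these bulk samples, fewer cells of a type and less RNA per cell cannot be told apart.

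**Figure D1:**
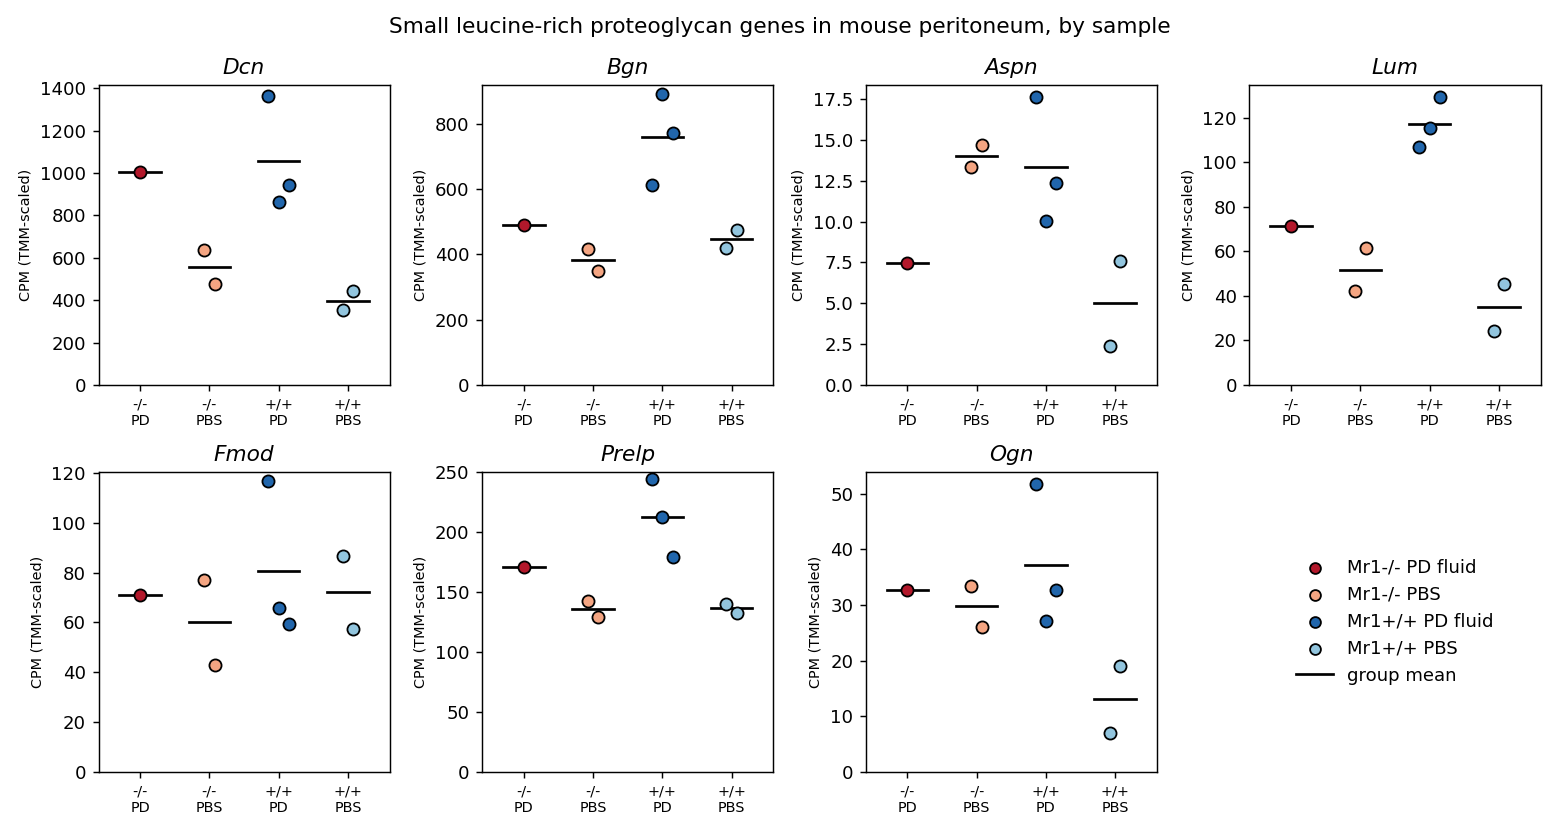
TMM-scaled CPM of the 7 genes (one panel each, linear axis from 0) in the 8 samples, by group, with points for samples and a bar for the group mean. In Mr1+/+ mice the PD fluid points lie above the PBS points in every panel but that of Fmod.

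Decorin, the product of Dcn, binds collagen I fibrils, carries a single chondroitin or dermatan sulfate chain and can bind TGF-beta. Dcn was at 1006 CPM in the Mr1-/- PD fluid sample and at 636.5 and 477 CPM in the Mr1-/- PBS samples. It was at 1365, 863 and 946 CPM in the Mr1+/+ PD fluid samples and at 443 and 354 CPM in the Mr1+/+ PBS samples. All 4 PD fluid samples were above all 4 PBS samples, in both genotypes. Dcn averaged 1058 ± 269 CPM in Mr1+/+ PD fluid (SD, n = 3) and 398 ± 62.7 CPM in Mr1+/+ PBS (SD, n = 2). Its log2 fold change was 1.41 ± 0.25 (SE), with an adjusted p of 0.0160 by edgeR. In Mr1-/- mice it was 0.85 ± 0.31 (SE), with an adjusted p of 1 by edgeR, and Dcn was the only member there under 0.05 before adjustment.

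Biglycan, from Bgn, is the closest relative of decorin and can also act as a free ligand of Toll-like receptors. Bgn was at 489 CPM in the Mr1-/- PD fluid sample and at 418 and 349 CPM in the Mr1-/- PBS samples. It was at 613, 892 and 771 CPM in the Mr1+/+ PD fluid samples and at 474.5 and 420.0 CPM in the Mr1+/+ PBS samples. The 3 Mr1+/+ PD fluid samples were the highest of the 8, and the Mr1-/- PD fluid sample lay just above the rest. The change in Mr1+/+ mice was 0.76 ± 0.20 (SE, log2), with an adjusted p of 0.0390 by edgeR, and that in Mr1-/- mice was 0.35 ± 0.26.

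Asporin, from Aspn, is the class I member that binds collagen and TGF-beta without a glycosaminoglycan chain, and it was the least abundant of the 7 by length-scaled level in each group. Aspn was at 7.48 CPM in the Mr1-/- PD fluid sample and at 13.3 and 14.7 CPM in the Mr1-/- PBS samples. In the Mr1+/+ PD fluid samples it was at 17.6, 10.1 and 12.4 CPM, and in the Mr1+/+ PBS samples at 7.58 and 2.40 CPM. These levels rest on 39 to 284 counts per library, with 39 counts in each of Mr1+/+ PBS replicates 1 and 2. The groups did not overlap in either genotype, but PD fluid samples were above PBS samples in Mr1+/+ mice and the PD fluid sample was below both PBS samples in Mr1-/- mice. The log2 fold change was 1.44 ± 0.49 (SE, adjusted p = 0.0835 by edgeR) in Mr1+/+ mice and -0.90 ± 0.64 in Mr1-/- mice, and neither passed.

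Lumican, from Lum, is a keratan sulfate proteoglycan that keeps collagen fibrils thin and evenly spaced. Lum was at 71.3 CPM in the Mr1-/- PD fluid sample and at 42.2 and 61.5 CPM in the Mr1-/- PBS samples. It was at 107, 115 and 129 CPM in the Mr1+/+ PD fluid samples, against 45.3 and 24.4 CPM in the Mr1+/+ PBS samples. The 3 Mr1+/+ PD fluid samples lay close together and above all 5 others. Lum averaged 117 ± 11.4 CPM in Mr1+/+ PD fluid (SD, n = 3) and 34.8 ± 14.8 CPM in Mr1+/+ PBS (SD, n = 2). Its log2 fold change was 1.76 ± 0.29 (SE, adjusted p = 0.0151 by edgeR), and in Mr1-/- mice it was 0.46 ± 0.36 with no call.

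Fibromodulin, from Fmod, binds the same region of collagen I as lumican and promotes fibril maturation. Fmod was at 70.9 CPM in the Mr1-/- PD fluid sample and at 77.2 and 43.0 CPM in the Mr1-/- PBS samples. It was at 117, 65.8 and 59.2 CPM in the Mr1+/+ PD fluid samples and at 57.5 and 86.7 CPM in the Mr1+/+ PBS samples. The groups overlapped in both genotypes, and 1 Mr1+/+ PD fluid sample, replicate 1, was above all others. Fmod was the one member whose Mr1+/+ groups overlapped, with a log2 fold change of 0.16 ± 0.39 (SE, adjusted p = 0.801 by edgeR). That sign turned to -0.21 without Mr1+/+ PD fluid replicate 1 and to -0.10 without Mr1+/+ PBS replicate 3.

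Prelp encodes a class II protein with a basic, heparin-binding end that can join basement membranes to the collagen below them. Prelp was at 171 CPM in the Mr1-/- PD fluid sample and at 142 and 129 CPM in the Mr1-/- PBS samples. It was at 245, 213 and 179 CPM in the Mr1+/+ PD fluid samples and at 133 and 140.5 CPM in the Mr1+/+ PBS samples. The 4 PBS samples of both genotypes lay within a narrow band, and all 4 PD fluid samples were above it. The log2 fold change of Prelp was 0.64 ± 0.16 (SE, adjusted p = 0.0377 by edgeR) in Mr1+/+ mice and 0.33 ± 0.21 in Mr1-/- mice.

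Osteoglycin, from Ogn, also called mimecan, is the class III member. Ogn was at 32.7 CPM in the Mr1-/- PD fluid sample and at 33.4 and 26.0 CPM in the Mr1-/- PBS samples. It was at 51.7, 27.0 and 32.7 CPM in the Mr1+/+ PD fluid samples and at 19.1 and 6.98 CPM in the Mr1+/+ PBS samples. Both Mr1+/+ PBS samples were below the 6 others, which overlapped among themselves. The log2 fold change was 1.53 ± 0.48 (SE, adjusted p = 0.0794 by edgeR) in Mr1+/+ mice and 0.14 ± 0.61 in Mr1-/- mice.

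The calls in Mr1+/+ mice depended on single libraries. Without Mr1+/+ PBS replicate 3, and so with 1 sample on PBS, 5 members and 18.2% of all genes were called: Aspn at 2.48 (log2, adjusted p = 0.00843 by edgeR), Ogn at 2.41 (adjusted p = 0.0107), Lum at 2.27, Dcn at 1.58 and Bgn at 0.86, while Prelp at 0.60 no longer passed (adjusted p = 0.0834). Without Mr1+/+ PD fluid replicate 3, no member and no other gene was called, and Lum then had an adjusted p of 0.0631 by edgeR. In that fit 3601 of 15356 genes, 6 of them members, had an unadjusted p under 0.05. Without Mr1+/+ PD fluid replicate 2, Dcn alone of the 7 was called, with 2.21% of all genes. Without replicate 1 all but Prelp of the 4 were, with 14% of all genes, and with 1 or the other Mr1-/- PBS library left out Dcn and Lum were, with 13.3% and 13.6%. Apart from Fmod, each member kept a positive log2 fold change in this comparison under all 16 alternatives that were fitted. Calling was more frequent among all genes when the 10 libraries were treated as separate samples (37.5% called) and with DESeq2 (26.5%), and 6 of the 7 members were called in each.

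**Figure D2:**
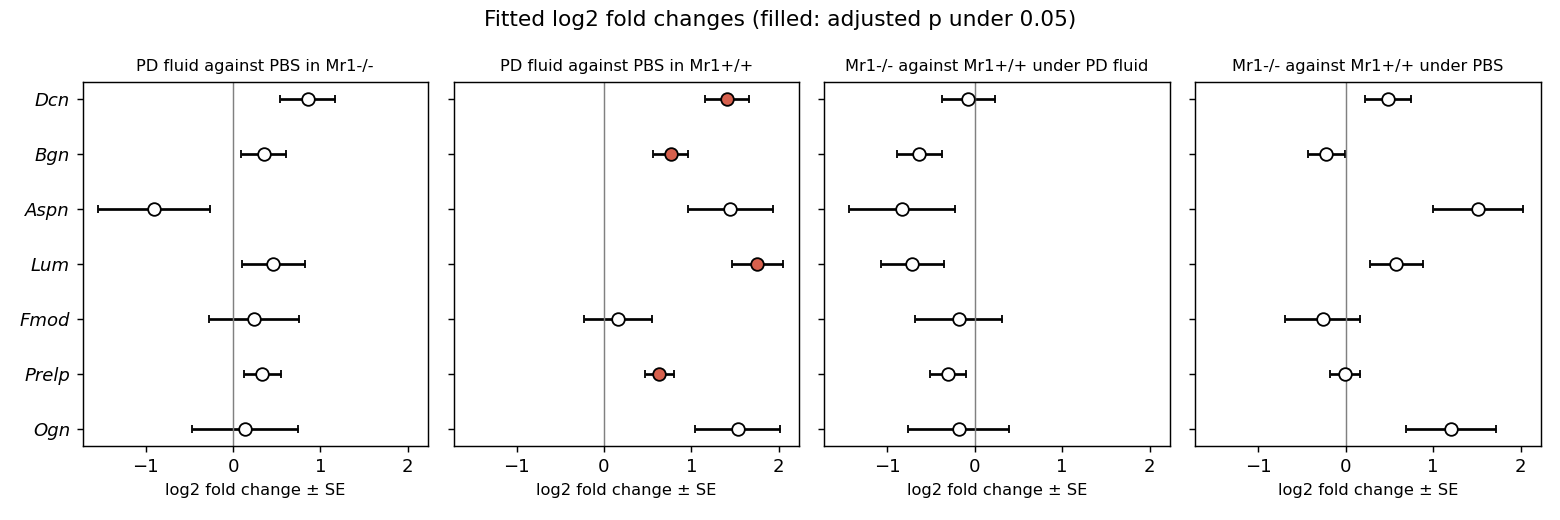
Fitted log2 fold changes with their standard errors (bars) for the 7 genes in 4 comparisons, positive where the group named first was higher. Filled points passed an adjusted p of 0.05 and are the 4 called genes of the Mr1+/+ panel.

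In Mr1-/- mice none of the 7 genes was called between PD fluid and PBS. Of the 7 genes, 6 had a positive log2 fold change, with a median of 0.33 against -0.01 over all genes tested, and Aspn was the negative one. The percentage of all genes called was 0, with 231 genes (1.5%) at an unadjusted p under 0.05 by edgeR, 1 of them a member (Dcn), and 11 genes called by DESeq2. In 5 of 7 members the PD fluid sample lay outside the range of the PBS samples, 4 above and Aspn below, where 28.7% of all genes lay above and 27.9% below. The fit had 1 sample on PD fluid here.

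The difference between the genotypes in the response to PD fluid was tested as an interaction, and no member passed. The interaction is the log2 fold change in Mr1-/- mice minus that in Mr1+/+ mice, and it was negative for 6 of the 7 genes. Aspn had the largest at -2.35 ± 0.81 (SE, log2, adjusted p = 0.319 by edgeR), followed by Ogn at -1.39 ± 0.79 and Lum at -1.30 ± 0.47 (adjusted p = 0.329). Dcn had -0.56 ± 0.41, Bgn -0.41 ± 0.33, Prelp -0.30 ± 0.27 and Fmod 0.08 ± 0.65. Without Mr1+/+ PBS replicate 3 the interaction was -3.38 for Aspn (adjusted p = 0.0717 by edgeR), -2.28 for Ogn (adjusted p = 0.0951) and -1.80 for Lum (adjusted p = 0.0772), and again no gene was called. Over the fits that leave out 1 library, Aspn ran from -3.38 to -2.09, Ogn from -2.28 to -1.07 and Lum from -1.80 to -0.996. Over all genes the percentage called was 0, with 2037 genes (13.2%) at an unadjusted p under 0.05 by edgeR, 2 of them members (Aspn and Lum), and 488 genes called by DESeq2. With the 10 libraries as separate samples, Aspn at -2.61 (adjusted p = 0.0430 by edgeR) and Lum at -1.45 (adjusted p = 0.0464) were called, as were 10.1% of all genes.

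Between genotypes on PD fluid, all 7 log2 fold changes of Mr1-/- over Mr1+/+ were negative, and none passed the test. Aspn had -0.84 ± 0.61 (SE), Lum -0.72 ± 0.36, Bgn -0.63 ± 0.26 (adjusted p = 0.230 by edgeR), Prelp -0.31 ± 0.21, Ogn -0.19 ± 0.58, Fmod -0.19 ± 0.50 and Dcn -0.07 ± 0.31. The signs of Dcn, Fmod and Ogn turned without Mr1+/+ PD fluid replicate 1. In 4 members, Aspn, Bgn, Lum and Prelp, the Mr1-/- sample was below all 3 Mr1+/+ samples, as for 33.9% of all genes, and 0.013% of all genes were called. With the 10 libraries as separate samples Bgn was called, at -0.64 (adjusted p = 0.0225 by edgeR), as were 22.9% of all genes.

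On PBS no member passed the test between genotypes, and 0.013% of all genes were called. Aspn at 1.51 ± 0.52 (SE, log2, Mr1-/- over Mr1+/+, adjusted p = 0.566 by edgeR) and Ogn at 1.21 ± 0.51 had the largest values, followed by Lum at 0.58 ± 0.30 and Dcn at 0.48 ± 0.26. Fmod was at -0.27 ± 0.43, Bgn at -0.22 ± 0.21 and Prelp at -0.01 ± 0.18. Both Mr1-/- samples were above both Mr1+/+ samples for Aspn, Ogn and Dcn and below them for Bgn, against 20.5% of all genes above and 18.1% below. Without Mr1+/+ PBS replicate 3 the values were 2.54 for Aspn, 2.09 for Ogn and 1.09 for Lum, with adjusted p of 0.116, 0.222 and 0.260 by edgeR, and 0.0199% of all genes were called. This comparison and that of PD fluid in Mr1+/+ mice share the Mr1+/+ PBS samples, in which Aspn and Ogn had their lowest group means.

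Levels of different genes were compared per kb of merged exon length. Summed over the 7 genes, the level was 366 CPM per kb in the Mr1-/- PD fluid sample and 276 and 229 CPM per kb in the Mr1-/- PBS samples. The sum was 509, 435 and 427 CPM per kb in the Mr1+/+ PD fluid samples and 237 and 208 CPM per kb in the Mr1+/+ PBS samples. Every PD fluid sample was above every PBS sample of both genotypes. Dcn and Bgn led in all samples. In Mr1+/+ PD fluid, Dcn (148 to 234 CPM per kb) came before Bgn (101 to 146), Prelp (49.7 to 67.7), Lum (43.6 to 52.9), Fmod (17.9 to 35.3), Ogn (10.5 to 20.2) and Aspn (4.27 to 7.48). Prelp and Lum overlapped there, as did Fmod and Ogn. In Mr1+/+ PBS the order was Bgn (68.9 to 77.8), Dcn (60.6 to 75.8), Prelp (36.8 to 38.9), Fmod (17.4 to 26.2), Lum (9.96 to 18.5), Ogn (2.72 to 7.44) and Aspn (1.02 to 3.22). Bgn and Dcn, Fmod and Lum, and Ogn and Aspn were pairs of neighbours in that order whose ranges overlapped.

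Shares of the summed level also shifted between samples. Dcn made up 47.0% of the sum in the Mr1-/- PD fluid sample and 35.6% and 39.5% in Mr1-/- PBS. It made up 34.0% to 46.0% in Mr1+/+ PD fluid, against 29.1% and 32.0% in Mr1+/+ PBS. Lum took 8.57% to 12.4% in Mr1+/+ PD fluid, against 4.78% and 7.81% in Mr1+/+ PBS, and Fmod took 4.19% to 6.95%, against 7.34% and 12.6%. As a ratio of CPM, Fmod to Lum was at 0.13, -0.81 and -1.13 (log2) in the Mr1+/+ PD fluid samples and at 0.34 and 1.83 in the Mr1+/+ PBS samples. The groups did not overlap, and the two-sided exact permutation p was 0.2, the smallest that 3 samples against 2 allow. The group means differed by -1.69 (log2), and by -2.43 without Mr1+/+ PBS replicate 3. In Mr1-/- mice the same ratio was -0.01 in the PD fluid sample and 0.87 and -0.52 in the PBS samples, which lay on either side.

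**Figure D3:**
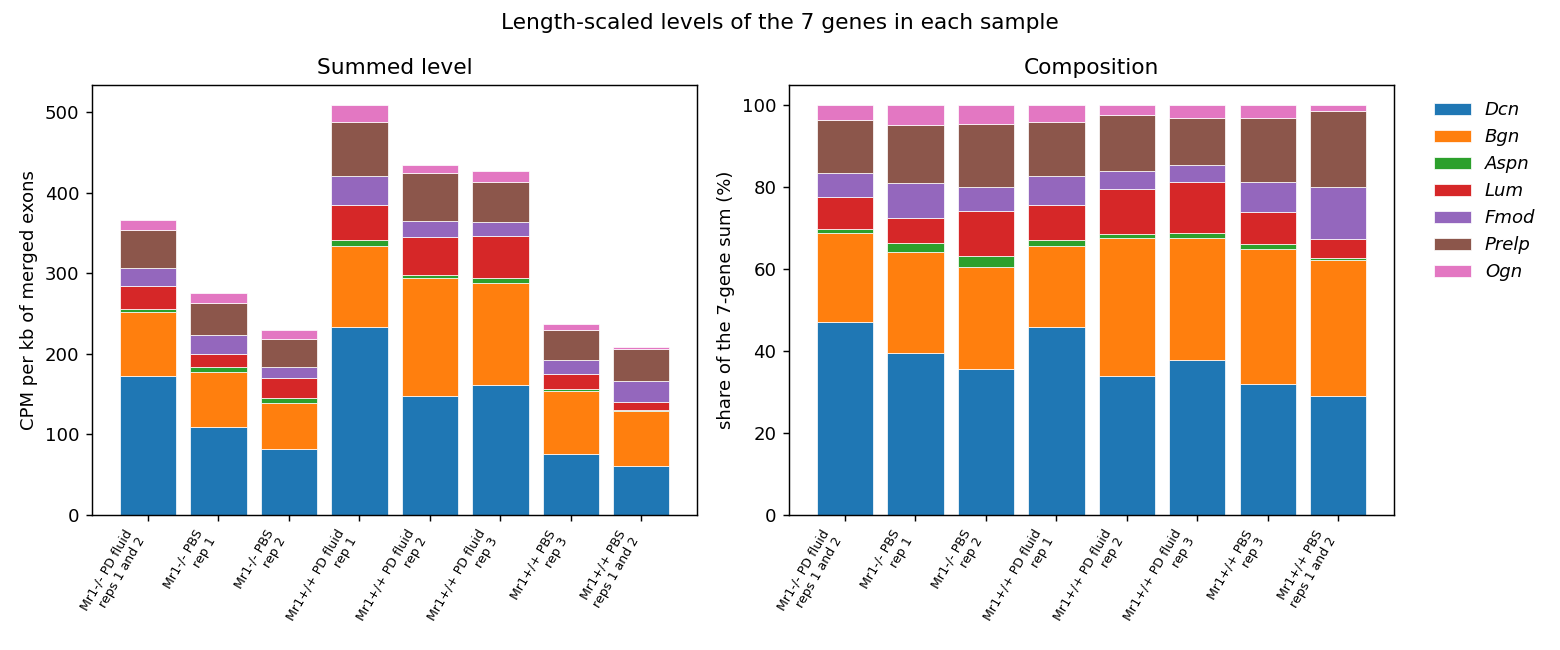
Length-scaled levels of the 7 genes stacked for each of the 8 samples, as CPM per kb of merged exons (left) and as a percentage of their sum (right). The left stacks of the 4 PD fluid samples, 366 to 509, stand above those of the 4 PBS samples, 208 to 276.

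Across the 8 samples, members varied together to different degrees, described here with Pearson's r of log2 CPM over samples that share groups and treatment. Aspn and Ogn had an r of 0.92 (Spearman's rho 0.67), Dcn and Prelp 0.88, Dcn and Ogn 0.84, and Dcn and Lum 0.84. Bgn had 0.79 with Prelp and 0.77 with Lum but 0.22 with Aspn. Fmod had -0.04 with Lum and -0.12 with Aspn. The Aspn to Ogn ratio was -1.55, -1.43 and -1.40 (log2) in Mr1+/+ PD fluid and -1.33 and -1.54 in Mr1+/+ PBS, a difference of -0.02 with a two-sided exact permutation p of 0.8. That difference was 0.080 without Mr1+/+ PBS replicate 3. In Mr1-/- mice the ratio was -2.13 in the PD fluid sample and -1.32 and -0.83 in the PBS samples, so the Mr1-/- PD fluid sample had the lowest of all 8.

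Among 10199 other genes with a mean of at least 10 CPM, the patterns most alike the mean of the 7 members belonged to Slc16a12 (r = 0.99 over 8 samples), Cpne8, Tmem254a, Wls, Gab1, Sncaip, Plac9a and Ebf2 (0.97). For single members the closest genes were Tbc1d19, Enpp2 and Sncg for Dcn, Lama4, Pdgfrb and Scarb1 for Bgn, Cpeb2, Msantd4 and Fam8a1 for Aspn, and Mospd2, Casp12 and Dynlt3 for Ogn. Lum was closest to Dnajb9, Maf and its relative Ecm2 (0.98), and Prelp to Tgfbr3 (0.98), Arhgap24 and Galnt15. The closest pattern to Fmod was that of Msln (0.92), which encodes mesothelin of mesothelial cells, followed by Ntng2 and Ppt1.

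Genes that work with these proteoglycans were described in lists, and in Mr1+/+ mice several changed between PD fluid and PBS. Of 11 collagen chains that the proteins bind and that were tested, 9 were higher and none lower, against 8.49% higher of all genes. Their log2 fold changes had a median of 1.32, and of 1.41 without Mr1+/+ PBS replicate 3. Col3a1 was higher by 2.02 ± 0.39 (SE, log2, adjusted p = 0.0215 by edgeR), Col1a1 by 1.32 ± 0.22, Col5a1 by 1.46 ± 0.22, Col5a2 by 1.46 ± 0.19 and Col6a1 by 1.13 ± 0.17. Col1a1 encodes the main chain of collagen I, and Col3a1 averaged 1731 ± 560 CPM in PD fluid (SD, n = 3) and 426 ± 89.8 CPM in PBS (SD, n = 2). In the ratio to Col1a1, Bgn was lower in each Mr1+/+ PD fluid sample, at 0.57, 0.52 and 0.36 (log2), than in the PBS samples, at 1.05 and 1.01 (two-sided exact permutation p = 0.2, the smallest allowed). The other 6 ratios to Col1a1 overlapped between the groups. Their group means differed by 0.09 for Dcn, 0.31 for Aspn, 0.52 for Lum, 0.34 for Ogn, -0.67 for Prelp and -1.17 for Fmod. Against Mr1+/+ PBS replicates 1 and 2 alone, all 3 PD fluid samples were higher for Aspn, Lum and Ogn. They were lower for Prelp and Fmod, and on both sides for Dcn. In that PBS sample the log2 ratios were -6.44 for Aspn, -3.09 for Lum, -4.90 for Ogn, -0.57 for Prelp and -1.27 for Fmod. Relative to Col3a1, Bgn, Prelp and Fmod were lower in all 3 PD fluid samples than in both PBS samples. The group means differed by -1.23 for Bgn, -1.35 for Prelp and -1.85 for Fmod (log2, two-sided exact permutation p = 0.2 for each, the smallest allowed), and the ratios of the other 4 members overlapped. Without Mr1+/+ PBS replicate 3 these differences were -1.36, -1.61 and -2.37, and that of Bgn to Col1a1 was -0.53.

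Few of the enzymes that build the sugar chains were called, in shares near the 8.49% higher and 6.37% lower of all genes. Of 6 linker enzymes, 1 was lower: Xylt1, which adds the first xylose, averaged 25.3 ± 4.79 CPM in Mr1+/+ PD fluid (SD, n = 3) and 61.3 ± 10.4 CPM in Mr1+/+ PBS (SD, n = 2), a change of -1.28 ± 0.19 (SE, log2, adjusted p = 0.0124 by edgeR). Of 18 chondroitin and dermatan sulfate enzymes, 2 were higher and 1 lower. Dse, the epimerase that turns chondroitin into dermatan sulfate, was higher by 0.82 ± 0.15, and Chst7, a sulfotransferase, by 0.96 ± 0.22. Chst3, another sulfotransferase, changed by -1.18 ± 0.19. Of 5 keratan sulfate enzymes tested, Chst1, a keratan sulfate sulfotransferase, was called, at 1.41 ± 0.19 (SE, log2), and averaged 174 ± 32.8 CPM in PD fluid (n = 3) and 65.7 ± 1.61 CPM in PBS (n = 2). Xylt1 in Mr1-/- mice was at 54.1 CPM in the PD fluid sample and at 46.9 and 53.1 CPM in the PBS samples. Its interaction of 1.39 ± 0.31 (SE, log2) had an adjusted p of 0.266 by edgeR.

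**Figure D4:**
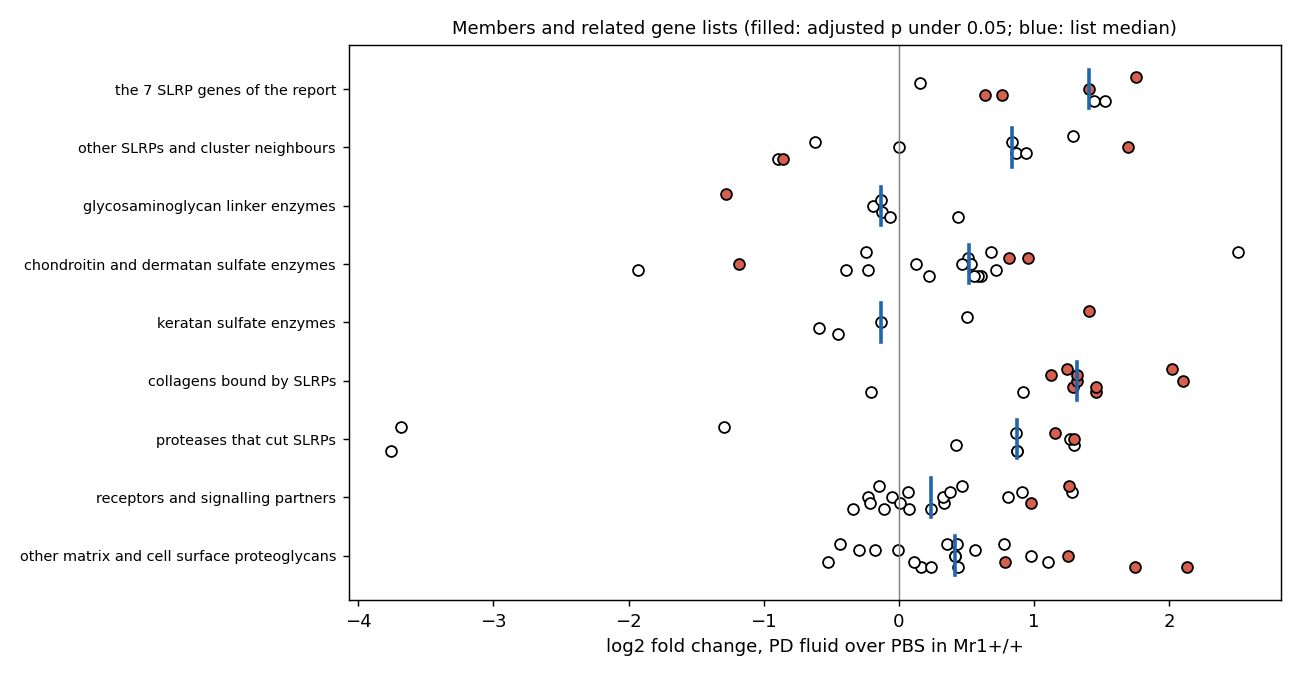
Log2 fold changes of PD fluid over PBS in Mr1+/+ mice for the 7 genes (top) and for 8 lists of related genes, 1 point per tested gene, filled where the adjusted p was under 0.05, with a blue line at the list median. The collagen list has 9 filled points of 11. Of the enzyme lists, that of chondroitin and dermatan sulfate has filled points on both sides of 0, the linker list 1 below and the keratan sulfate list 1 above.

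The counts of this paragraph stand against 8.49% of all genes called higher and 6.37% lower in Mr1+/+ mice. Of 9 further relatives and cluster neighbours that were tested, 1 was higher and 1 lower, which is near those shares. Ecm2, beside Aspn in the cluster, was at 28.2 CPM in the Mr1-/- PD fluid sample, 22.2 and 25.2 CPM in Mr1-/- PBS, 45.1 to 51.7 CPM in Mr1+/+ PD fluid and 11.0 and 18.9 CPM in Mr1+/+ PBS. Its change in Mr1+/+ mice was 1.70 ± 0.24 (SE, log2, adjusted p = 0.0124 by edgeR). Chad, which encodes chondroadherin, changed by -0.86 ± 0.23 (adjusted p = 0.0431). Omd, between Aspn and Ogn, had at most 18 counts in any library. Of 11 proteases that cut these proteins, Mmp2 at 1.30 ± 0.27 and Bmp1 at 1.15 ± 0.26 were higher. Of 19 receptors and signalling partners, Tgfb3 at 1.26 ± 0.27 and Cd14 at 0.98 ± 0.25 were higher, again near the share of all genes. Of 21 other proteoglycans 4 were higher, led by Gpc3 at 1.75 ± 0.21, Sdc2 at 1.25 ± 0.17 and Vcan at 2.13 ± 0.41. None of the genes in these 8 lists was called in Mr1-/- mice, between genotypes or in the interaction, and without Mr1+/+ PD fluid replicate 3 none was called in Mr1+/+ mice. Without Mr1+/+ PBS replicate 3, Chad and Chst7 were no longer called, while other genes of these lists were newly called. The median log2 fold change was then 1.30 over the 9 proteases still tested (0.88 over 11 with it) and 0.40 for receptors and partners (0.24). It was -0.18 for keratan sulfate enzymes (-0.13) and 0.50 for other proteoglycans (0.42).

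Markers of several cell types moved with the same comparison, in which 8.49% of all genes were called higher and 6.37% lower. Of 15 fibroblast markers, 11 were higher in Mr1+/+ PD fluid, and their sum was 1848 to 2256 CPM, against 979 and 1004 CPM in Mr1+/+ PBS. In Mr1-/- mice that sum was 1301 CPM in the PD fluid sample and 758 and 1052 CPM in the PBS samples. Of 14 adipocyte markers, 12 were higher in Mr1+/+ PD fluid, with sums of 19533 to 28443 CPM against 6848 and 8419 CPM in Mr1+/+ PBS, and of 11 endothelial markers 7 were higher, with sums of 1968 to 2515 CPM against 1245 and 1368 CPM. Of 12 macrophage markers 5 were higher, at 3008 to 4091 CPM against 2380 and 2554 CPM, and all 10 B cell markers were lower, at 1302 to 1480 CPM against 2359 and 3676 CPM. Of 5 erythroid markers tested, 3 were higher, with sums of 84.8 to 240 CPM against 18.1 and 35.6 CPM, and their log2 fold changes had a median of 2.44. Of 11 liver markers tested 2 were higher, while 5 log2 fold changes were positive and 5 negative, with a median of 0. The liver sums were 3343 to 4990 CPM against 1518 and 1631 CPM. In that list Cyp2e1 had up to 76953 counts in a library, and no other marker had more than 2015. None of 13 mesothelial markers was called, with sums of 258 to 579 CPM against 229 and 1176 CPM. The sum of 1176 CPM was that of Mr1+/+ PBS replicate 3, and the part of intestinal tissue in it was not tested. Of 13 tendon and cartilage markers, 7 were tested and none was called, with 3 positive and 4 negative log2 fold changes. Their sums were 78.1 to 131 CPM against 68.2 and 69.1 CPM. Cilp had up to 1682 counts in a library and Thbs4 up to 281, while Tnmd, Acan, Col2a1, Col9a1 and Matn3 had at most 8. None of 7 skeletal muscle, 12 acinar and 11 intestinal markers tested was called. The calls above are those of the fit with Mr1+/+ PBS replicate 3. Without it 1 Mr1+/+ PBS sample remained, so only median log2 fold changes are given. They were 1.495 for fibroblast, 1.822 for adipocyte, 1.201 for endothelial, 0.969 for macrophage, 2.950 for erythroid and 1.536 for liver markers. B cell markers had -1.354, mesothelial 0.662, skeletal muscle -0.980 and the 6 intestinal markers still tested -0.594. The medians of tendon and cartilage markers (0.363) and acinar markers (2.262) were then positive. With that library they were -0.761 and -2.458. The part of these cell types in the members' levels was not tested.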

How the data were processed

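RNA of 10 peritoneum libraries was measured by poly-A RNA-seq, and per the labels' protocols cDNA was primed with random oligonucleotides. The deposited values are raw counts, 1 row per symbol, on mm10 according to the submitters' processing notes. The authors' aligner and counter were not given in the sources used here. No molecular identifiers are named, so PCR copies may be counted as reads.

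Rows sharing a symbol were summed (21899 rows to 21877 symbols). Libraries of a group with a chi-square per gene under 5 were summed as 1 sample, leaving 8. Counts were filtered with filterByExpr, scaled by TMM and tested with edgeR 4.0.16 (R 4.3.3, limma 3.58.1), all groups in one fit with 4 residual degrees of freedom. Standard errors were computed from the log2 fold change and F. DESeq2 1.42.0, the 10 libraries, a replicate block, DESeq2 size factors, no filter, only the groups compared and leaving out each library were alternatives. Data were simulated once with few changed genes, each at a mean of at least 5 CPM. On these data the test recovered 41% of 2-fold changes for PD fluid in Mr1+/+ mice and 7% in Mr1-/- mice. Between genotypes it recovered 22% on PBS and 13% on PD fluid. Of 4-fold changes it recovered 89%, 67%, 89% and 65% in the same order. Recovery after Benjamini-Hochberg adjustment depends on the share of genes that change, so these percentages may not hold for the real comparisons. Lengths and coordinates came from GENCODE M21 (97.0% of symbols matched) and promoters from RefSeq, GRCm38.p6. Patterns were correlated on log2 CPM with a prior count of 2.

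Named were all members, Mr1, Col1a1 and Col3a1, up to 3 called genes with the smallest p in each list at a mean of at least 5 CPM (without a call, up to 2), and the closest patterns. Omd, Kera, Epyc, Optc and the marker genes were named for their place or role. Members and lists were chosen with earlier results of these data known.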

Additional observations from a re-analysis of the deposited data

How the results depend on the processing

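In Mr1+/+ mice the count of genes called between PD fluid and PBS, 2286, became 5549 with 10 libraries, 3845 with DESeq2 and 0 to 2751 when 1 library was left out, and that of members, 4, ranged over 0 to 5 when 1 library was left out. In Mr1-/- mice genes called, 0, became 2 with 10 libraries, 11 with DESeq2 and 0 to 1 without 1 library. Between genotypes on PBS, 2 genes became 50 with 10 libraries, 211 with DESeq2, 6 with no filter, 0 with only the groups compared and 1 to 3 without 1 library. Between genotypes on PD fluid, 2 genes became 3400 with 10 libraries (1 of them a member, Bgn), 1036 with DESeq2, 7 with no filter, 561 with only the groups compared and 0 to 33 without 1 library. For the interaction, 0 genes became 1490 with 10 libraries (2 of them members), 488 with DESeq2 and 0 to 1 without 1 library, and a fit on only the groups compared is the same fit, so it was not run. The cause of these shifts was not tested.

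Deviations of same-numbered libraries from their group means had r of -0.16 to 0.17 over 13 pairs, 2 of them over 0.1. These values cannot decide on a pairing. Near-identical libraries deviate by little but counting noise, and in groups of 2 libraries the deviations mirror each other. Replicate numbers were not taken as a pairing because the labels do not say that a number marks a shared animal, litter or day. With the replicate number as a block on the 10 libraries, genes called were 5537 for PD fluid in Mr1+/+ mice, 2428 between genotypes on PD fluid and 1915 for the interaction, members called were 6 for PD fluid in Mr1+/+ mice and 2 for the interaction, and Ogn turned to 0.021 between genotypes on PD fluid.

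Signs turned in members that were not called, and ranges here are over fits that leave out 1 library. For PD fluid in Mr1+/+ mice, Fmod ran from -0.21 (Mr1+/+ PD fluid replicate 1 left out) to 0.34, and was -0.10 with Mr1+/+ PBS replicate 3 left out. For PD fluid in Mr1-/- mice, Fmod ran from -0.12 to 0.72 and Ogn from -0.031 to 0.33, both lowest without Mr1-/- PBS replicate 2. Between genotypes on PBS, Fmod ran from -0.75 to 0.096 and Prelp from -0.080 to 0.059, both highest without Mr1-/- PBS replicate 2. Between genotypes on PD fluid, Dcn ran from -0.22 to 0.15, Fmod from -0.37 to 0.18 and Ogn from -0.39 to 0.13, all highest without Mr1+/+ PD fluid replicate 1. In the interaction, Fmod ran from -0.28 (Mr1-/- PBS replicate 2 left out) to 0.56. Of 112 member values of PD fluid in Mr1+/+ mice over 16 alternatives, 89 kept their direction and side of the threshold. The related lists, markers, patterns and ratios were put through the same alternatives after the data were seen. Of 1580 list counts 192 moved by over 1.5 times, of 368 fold changes of other called genes 42 no longer passed, and of 377 pattern correlations 1 moved by over 0.1. Of 77 ratios 4 turned in sign, all Aspn to Ogn, at 0.0096 with 10 libraries and between -0.060 and 0.080 with 1 library left out.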
